A study of Mus musculus with 12 samples.

Results

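The 38 genes described here code for enzymes and membrane proteins of the lysosome, the acid compartment in which cells digest what they take up. They were the listed symbols found by name in the adult gene table and matched to the neonate table by Entrez Gene identifier. All 38 were found, out of 23319 genes present in both tables. By role they were 12 acid glycosidases, 10 cathepsins and other peptidases, 3 sulfatases, 5 genes for lipid hydrolases and lipid-handling proteins, 2 acid phosphatases, 5 membrane proteins and channels, and the transcription factor gene Tfeb. The list was drawn up by function, with earlier results of these data known. The RNA came from whole tissue, so the cell type that held each transcript was not measured.

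RNA-seq covered 4 groups of 3 libraries from mice labelled C57BL/6, with the entire small intestine ground to powder. WT neonates were wild type mice of 12 days, KO neonates were mice of the same age labelled as intestinal knockouts of NCoR1, and WT adults and KO adults carried the same genotypes at 10 weeks. NCoR1 is a corepressor, a protein through which nuclear receptors hold their target genes at low activity. By the series design text each library pooled 2 mice; it calls the mice F/FUN and DIECUN and does not say what these names mean, and what drives the deletion is not stated in the labels. All p-values below reflect the spread between such pools. Recovered reads in genes ranged from 5.93 to 9.34 per neonate library and from 9.78 to 13.1 per adult library, in units of 1e+06. Levels are counts per 1e+06 reads of the library (CPM), from the scaled reads as deposited, and differences between KO and WT are on the log2(CPM + 1) scale with limma's standard error (SE). A gene was called where its p, adjusted by the Benjamini-Hochberg method over all tested genes, was under 0.05. Where KO and WT libraries of an age are said not to overlap, the share of all genes that did so was not counted. Ncor1 was lower in each KO library than in every WT library of its age, at 213 to 245 CPM against 447 to 459 CPM in neonates and at 159 to 168 CPM against 239.5 to 252 CPM in adults. The tissue held markers of enterocytes, the absorptive cells, at a summed 71621 to 81124 CPM over 10 genes in neonates and 49757 to 61541 CPM in adults. The libraries also matched their ages: Fcgrt, the neonatal receptor for milk antibodies, stood at 4664 ± 177 CPM in WT neonates and 55.6 ± 1.97 CPM in WT adults (SD, n = 3), and sucrase-isomaltase, Sis, at 31.9 ± 9.13 and 7638 ± 149 CPM.

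Before weaning, enterocytes of the distal small intestine take up milk proteins whole by endocytosis and digest them in large lysosomal vacuoles, since digestion in the gut lumen is still immature. At weaning these vacuolated cells are replaced by adult enterocytes that absorb the products of luminal digestion. Lysosomal hydrolases work at acid pH and many are carried to the lysosome by mannose 6-phosphate tags, while TFEB and its relatives switch on many lysosomal genes through a short E-box in their promoters.

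That E-box core, CACGTG, reads the same on both strands, and it was searched in windows reaching from 250 bases before to 50 bases after the annotated start of each gene (RefSeq sequence, build GRCm38.p6). A window was at hand for 35 of the 38 genes and for all but Ctsb, Ctsh and Asah1. CACGTG was present in 12 of these 35 genes, or 34.3%, against 8.09% of 27025 genes with a window. The longer form TCACGTG, which always contains the core, was present on either strand in 31.4% of the 35 genes and 4.29% of all genes. The windows of 4 genes are shown as examples, with CACGTG in capitals. The neonatal calls of Lamp1 and Ctsa among them did not hold in every setting, as given below. Glb1 (chr9:114400828-114401127, plus strand) has the core once, 48 bases before the start. Lamp1 (chr8:13158911-13159210, plus strand) has it at 61, 45, 28 and 15 bases before the start. Ctsa (chr2:164833523-164833822, plus strand; the later of its 2 windows, the other having none) has it 12 bases before the start and at base 6 after it. Mcoln3 (chr3:146121541-146121840, plus strand) has none in this window.
Glb1: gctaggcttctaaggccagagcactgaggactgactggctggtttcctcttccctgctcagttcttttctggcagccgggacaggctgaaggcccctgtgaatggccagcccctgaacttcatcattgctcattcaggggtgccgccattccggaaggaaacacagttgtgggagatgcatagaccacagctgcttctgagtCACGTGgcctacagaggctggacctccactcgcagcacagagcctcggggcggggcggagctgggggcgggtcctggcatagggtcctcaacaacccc
Lamp1: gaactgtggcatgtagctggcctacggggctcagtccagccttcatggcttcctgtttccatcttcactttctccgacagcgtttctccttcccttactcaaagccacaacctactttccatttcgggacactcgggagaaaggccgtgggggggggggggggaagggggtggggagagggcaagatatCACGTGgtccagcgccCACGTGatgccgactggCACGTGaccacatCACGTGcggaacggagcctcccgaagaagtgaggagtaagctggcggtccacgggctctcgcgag
Ctsa: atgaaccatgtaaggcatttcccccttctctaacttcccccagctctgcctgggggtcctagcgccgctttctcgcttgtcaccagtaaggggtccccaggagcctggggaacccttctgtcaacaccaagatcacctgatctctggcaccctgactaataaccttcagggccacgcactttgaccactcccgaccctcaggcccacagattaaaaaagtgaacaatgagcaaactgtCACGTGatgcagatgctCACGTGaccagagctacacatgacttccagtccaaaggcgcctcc
Mcoln3: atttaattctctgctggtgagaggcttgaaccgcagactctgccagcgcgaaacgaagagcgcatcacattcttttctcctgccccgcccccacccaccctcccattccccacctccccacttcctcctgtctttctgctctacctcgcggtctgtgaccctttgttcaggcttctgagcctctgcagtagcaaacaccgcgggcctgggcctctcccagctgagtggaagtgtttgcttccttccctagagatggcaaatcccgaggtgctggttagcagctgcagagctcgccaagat

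**Figure D1:**
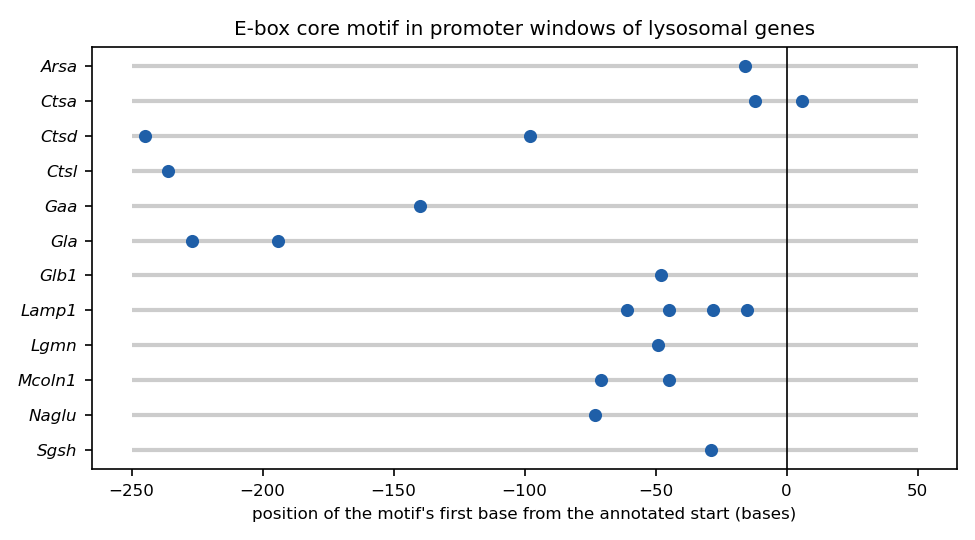
Position of the first base of each CACGTG in the promoter windows of the 12 lysosomal genes that hold it, in bases from the annotated start; the grey line is the window searched and each point is 1 occurrence. Lamp1 holds 4 occurrences, Ctsa, Ctsd, Gla and Mcoln1 hold 2 each, and the other 7 genes hold 1.

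In neonates the core was present in 1 of 3 genes with a window that were higher in KO (Ctsa), in 5 of 15 that were lower (Glb1, Gaa, Arsa, Sgsh and Lamp1) and in 6 of 17 that were not called. In adults it was present in 0 of 1 higher, 1 of 5 lower (Glb1) and 11 of 29 not called. A match describes the letters in the window and does not show a site in use.

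In WT neonates the lysosomal genes spanned a wide range of levels. Per kilobase of exon, Ctsl, the endopeptidase cathepsin L, stood at 1859 ± 178 CPM per kb, followed by Lgmn, which codes for the asparaginyl endopeptidase legumain, at 1291 ± 134 CPM per kb (SD, n = 3). Lamp1, an abundant glycoprotein of the lysosomal membrane, came next at 551 ± 17.5 CPM per kb. Sgsh and Idua, which help degrade heparan sulfate, were lowest, at 3.49 ± 0.544 and 3.06 ± 0.164 CPM per kb. In WT adults the order differed: Lamp1 was highest at 307 ± 21.9 CPM per kb, Ctss, a cathepsin of antigen-presenting cells, followed at 154 ± 7.86 CPM per kb, and Galc was lowest at 1.18 ± 0.218 CPM per kb. Every one of the 38 genes had reads in all 12 libraries, with the lowest count, 6 reads, for Mcoln3 in a KO adult library. Spread between WT libraries was small for most, with a median coefficient of variation of 5.10% in neonates and 7.24% in adults.

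**Figure D2:**
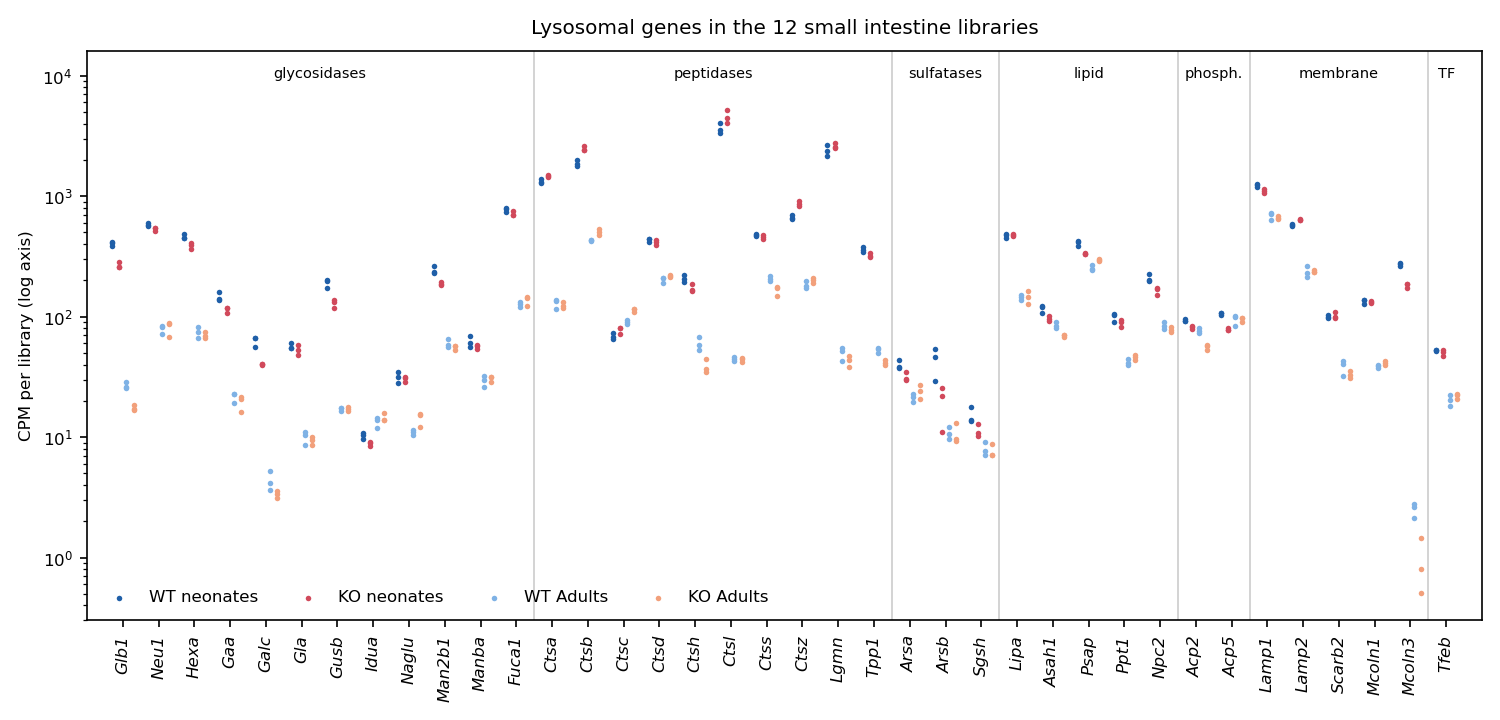
Level of each of the 38 lysosomal genes in the 12 libraries, in CPM on a log axis, with 1 point per library, coloured by group and ordered by role. Ctsl, Lgmn and Ctsb form the top of the neonate points, and Mcoln3 lies above 100 CPM in neonates and at 2.76 CPM or less in adults; Glb1, Ctsa, Ctss and Psap have unequal exon lengths in the age tables, so their levels are read within an age only.

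The age of the mice went with large differences in level. Exon length was equal in the neonate and adult tables for 34 of the 38 genes, and only these were set side by side, as values with no test: each table had its own scaling, and age and table cannot be told apart. Of the 34, 32 had all 3 WT neonate libraries above all 3 WT adult libraries, a pattern shown by 50.8% of 13238 genes. The other two, Idua and Ctsc, lay the other way, as 23.4% of genes did. With TMM scaling, a normalization that sets the bulk of genes equal, Acp2 and Acp5 overlapped between the ages. The median ratio of WT neonates to WT adults over the 34 was 3.35.

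At least 10 times higher in WT neonates, a pattern shown by 1.94% of all genes, stood 5 of the 34. Mcoln3, an endolysosomal calcium channel related to mucolipin 1, stood at 273, 263 and 281 CPM in WT neonates and at 2.63, 2.13 and 2.76 CPM in WT adults, a ratio of 109. Ctsl stood at 4037, 3536 and 3366 CPM in neonates and 42.6, 44.3 and 46.3 CPM in adults, a ratio of 82.1. The neonate libraries of both genes lay far above every adult library. Lgmn had a ratio of 47.9, Galc, the galactosylceramidase, 14.6, and Gusb, the beta-glucuronidase, 11.1. With TMM scaling Gusb came to 9.26, below 10, and the other 4 to between 12.1 and 90.6.

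Over the 34 genes of equal length the summed level was 15145 to 16697 CPM in WT neonates and 3084 to 3205 CPM in WT adults. Ctsl alone made up 22.2 to 24.2% of that sum in WT neonates and 1.33 to 1.46% in WT adults. At the other end, Acp5, the tartrate-resistant acid phosphatase, had a ratio of 1.12, and Acp2, the lysosomal acid phosphatase, 1.22. Idua was higher in WT adults at 14.3, 13.9 and 12.0 CPM against 10.3, 10.8 and 9.71 CPM, and Ctsc, an aminopeptidase that activates granule proteases of immune cells, at 86.6, 94.6 and 90.7 CPM against 73.0, 67.9 and 65.5 CPM. Tfeb stood at 53.0, 52.0 and 53.3 CPM in WT neonates and 22.5, 20.5 and 18.2 CPM in WT adults, a ratio of 2.59.

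**Figure D3:**
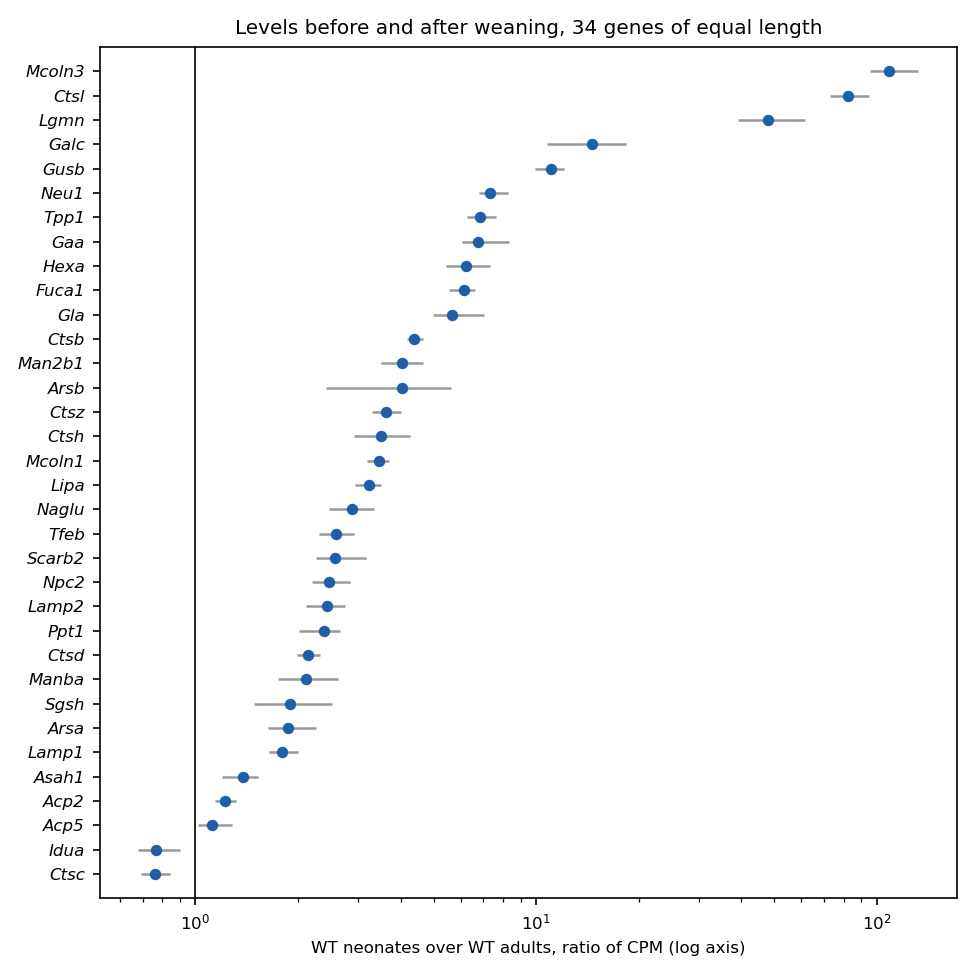
Ratio of mean CPM in WT neonates to WT adults for the 34 lysosomal genes of equal exon length, on a log axis; bars run from the lowest to the highest ratio between single libraries, and the vertical line marks equal levels. Mcoln3 (109), Ctsl (82.1) and Lgmn (47.9) lie far to the right, and Idua and Ctsc lie left of the line.

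Comparing KO with WT neonates shows how the lysosomal genes stood before weaning in mice labelled as NCoR1 knockouts. Of 12 acid glycosidases 6 fell and 0 rose, and of 10 peptidases 3 rose and 2 fell. Of the 38 genes, all tested, 17 fell and 4 rose, against 16% and 5.21% of the 14215 genes tested (21.2% in either direction). The balance depends on the scaling: the median difference of all genes was -0.11 with library sums and -0.01 with TMM, and with TMM 9 members were lower and 7 higher, against 7.22% and 9.41% of all genes. The members' median was -0.16 with library sums and -0.05 with TMM. Their summed level did not fall: it was 17701 to 19342 CPM in WT against 18695 to 20327 CPM in KO neonates, which overlapped. With TMM the sums were 17205 to 18580 CPM in WT against 19349 to 20806.5 CPM in KO, without overlap. Ctsl alone made up 19.0 to 20.9% of the sum in WT and 21.5 to 25.3% in KO neonates. In bulk tissue, fewer cells of a type and less RNA per cell cannot be told apart. Calls held with TMM, edgeR and DESeq2 on recovered reads and in every leave-one-out run for Ctsb and Ctsz, which rose, and for Glb1, Galc, Gusb, Man2b1, Gaa, Psap, Npc2, Acp5 and Mcoln3, which fell. Beside these, markers of myeloid cells, which are rich in lysosomes, were at a summed 469 to 505 CPM in WT against 335 to 408 CPM in KO neonates over the 14 of 15 found. Of the 14, 6 fell (2 with TMM), and among the 4 highest Csf1r was at 226 ± 29.6 and 141 ± 17.9 CPM, C1qa at 44.7 ± 2.21 and 36.3 ± 4.23, C1qc at 42.8 ± 1.44 and 37.3 ± 4.59, and C1qb at 33.5 ± 3.79 and 24.8 ± 4.09 CPM in WT and KO; none of the 14 was at 0. Csf1r made up most of the difference between the mean myeloid sums of WT and KO neonates. Enterocyte markers went the other way from the myeloid markers, with 8 of 10 higher in KO neonates and 1 lower (9 and 0 with TMM). Fibroblast markers were at a summed 2017 to 2623 CPM in WT against 1816 to 2011 CPM in KO neonates, with 4 of 7 lower (0 with TMM), and of 5 MHC class II genes 2 were lower (1 with TMM). Of 6 suckling-type enterocyte markers 3 were lower in KO neonates and 0 higher (2 and 0 with TMM), with summed levels of 7628 to 8003 CPM in WT against 7457 to 7777 CPM in KO. Of 4 adult-type enterocyte markers 1 was higher and 0 lower (2 and 0 with TMM), with summed levels of 279 to 322 CPM in WT against 429 to 522 CPM in KO. The part of these cell types in the neonatal results was not tested.

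**Figure D4:**
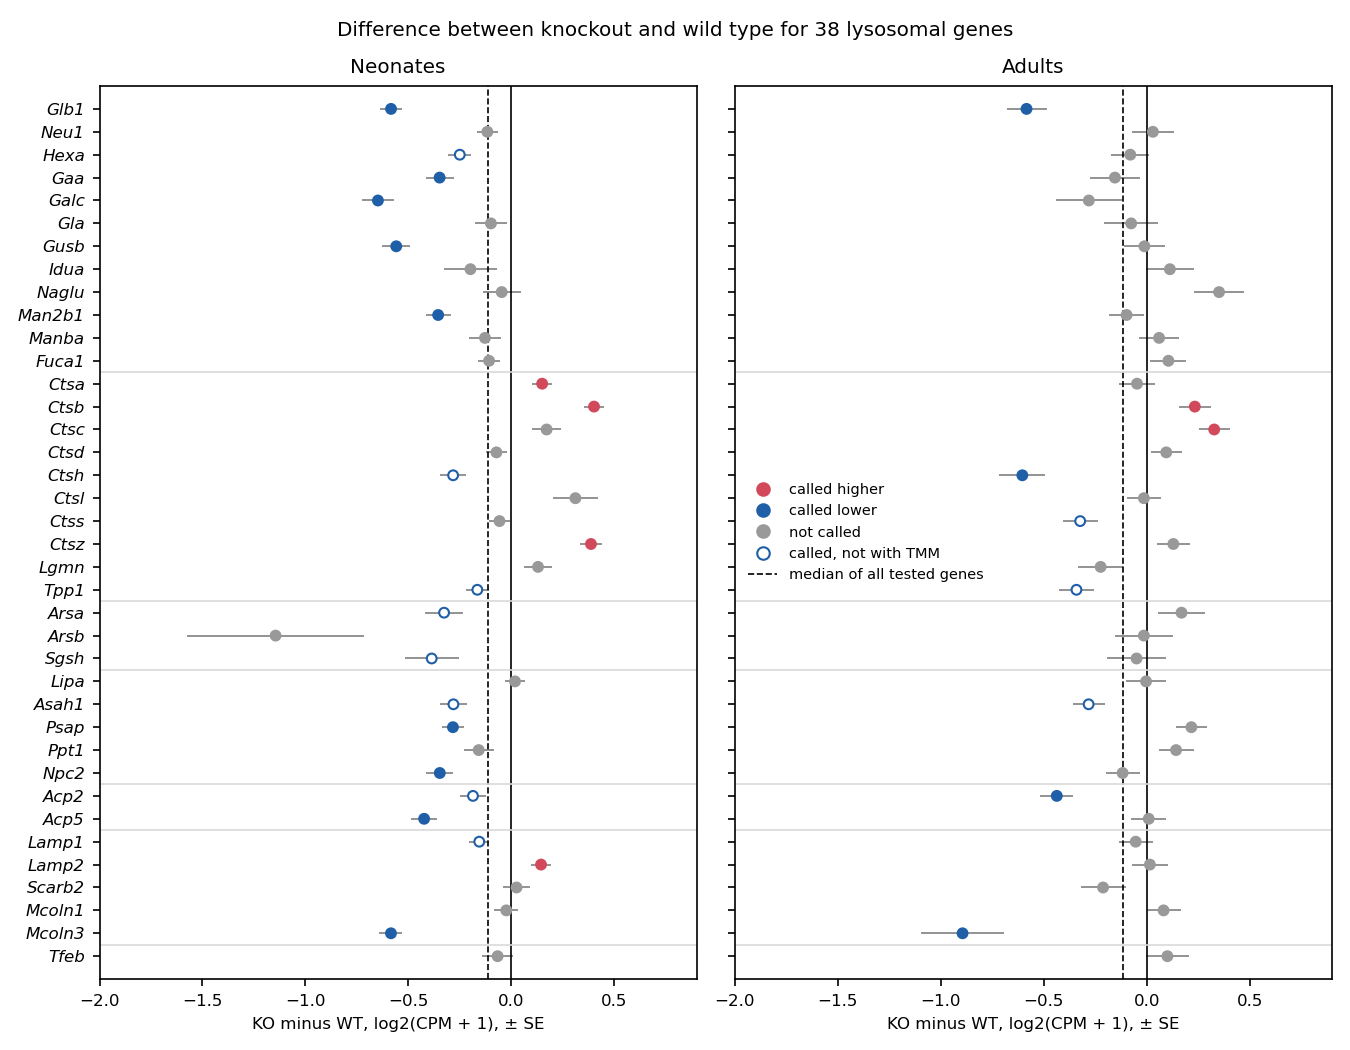
Difference between KO and WT on the log2(CPM + 1) scale, with SE, for the 38 lysosomal genes by role, neonates on the left and adults on the right. The dashed line is the median of all tested genes (-0.11 at both ages); in neonates Glb1, Galc, Gusb and Mcoln3 lie lowest among the called genes and Ctsb and Ctsz highest, and open circles mark calls lost with TMM scaling.

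Of the 12 acid glycosidases, which remove sugars from glycoproteins and glycolipids, 6 fell in KO neonates and 0 rose (5 and 0 with TMM). Of all tested genes 16% fell and 5.21% rose (7.22% and 9.41% with TMM). Glb1, the lysosomal beta-galactosidase (Entrez Gene 12091, mm9 chromosome 9, 114310196 to 114383497), stood at 382, 415 and 410.3 CPM in WT against 261, 261 and 284 CPM in KO neonates. Every KO library lay below every WT library, with a log2 difference of -0.58 (SE 0.0551, limma adjusted p = 2.04e-07). Galc, which splits galactosylceramide, stood at 66.8, 66.9 and 56.3 CPM in WT against 40.4, 40.1 and 39.3 CPM in KO. The KO libraries were close together and all below WT, and the log2 difference was -0.65 (SE 0.0796, limma adjusted p = 6.39e-06). Gusb, which removes glucuronic acid from glycosaminoglycans, stood at 200.5, 175 and 197 CPM in WT against 132, 137 and 118 CPM in KO. Its groups did not overlap, with a log2 difference of -0.56 (SE 0.0676, limma adjusted p = 5.71e-06).

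Smaller falls were those of Man2b1, the acid alpha-mannosidase, from 229, 263 and 234 CPM to 195, 188 and 183 CPM (log2 -0.36, SE 0.0604, limma adjusted p = 0.000258), and of Gaa, the acid alpha-glucosidase that degrades glycogen, from 140.1, 161 and 138 CPM to 107, 118 and 119 CPM (log2 -0.35, SE 0.0682, limma adjusted p = 0.000992). In both, no KO library reached a WT library. Hexa, the alpha subunit of beta-hexosaminidase, went from 484, 450.5 and 452 CPM to 411, 363 and 391 CPM. Its groups did not overlap (log2 -0.25, SE 0.0556, limma adjusted p = 0.00288), but the call was lost with TMM (adjusted p = 0.122). Neu1, the sialidase that forms a complex with the Glb1 and Ctsa proteins, stood at 580.3, 599 and 562 CPM in WT against 549, 514 and 544 CPM in KO and was not called (log2 -0.12, SE 0.0505, limma adjusted p = 0.11). Of the transcripts for that complex, then, Glb1 was lower and Neu1 was not called, though all its KO libraries lay below WT. Ctsa was called higher, a call that did not hold in every leave-one-out fit, as given below. The remaining 5, Gla, Idua, Naglu, Manba and Fuca1, had log2 differences of -0.20 to -0.05 and were not called. The summed level of the 12 was 2948 to 3075 CPM in WT against 2474 to 2606 CPM in KO neonates, and the groups stayed apart with TMM, at 2885 to 2934 against 2561 to 2678 CPM.

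The 10 cathepsins and other peptidases, cut proteins. In KO neonates 3 rose and 2 fell, against 5.21% and 16% of all tested genes. With TMM 6 rose and 0 fell, against 9.41% and 7.22%. Whether the share of the peptidases differed from that of the glycosidases was not tested. Ctsb, the cysteine protease cathepsin B, stood at 1987, 1794 and 1864 CPM in WT against 2426, 2409 and 2623 CPM in KO. Every KO library lay above every WT library, with a log2 difference of 0.40 (SE 0.0509, limma adjusted p = 9.44e-06). Ctsz, the carboxypeptidase cathepsin Z, stood at 694, 654 and 645 CPM in WT against 865, 826 and 917 CPM in KO, again without overlap (log2 0.39, SE 0.0523, limma adjusted p = 2.09e-05). Ctsa, a carboxypeptidase that also protects the Glb1 and Neu1 proteins from breakdown, stood at 1381, 1308 and 1281 CPM in WT against 1462, 1439 and 1503 CPM in KO. It rose by a smaller step (log2 0.15, SE 0.0476, limma adjusted p = 0.0297), and leaving out KO neonates 3 (adjusted p = 0.119), WT neonates 3 (0.132) or WT neonates 2 (0.0967) ended the call.

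Ctsl, the most abundant of the peptidase genes, stood at 4037, 3536 and 3366 CPM in WT against 5148, 4019 and 4437 CPM in KO neonates. The lowest KO library fell within the WT range, and it was not called (log2 0.31, SE 0.111, limma adjusted p = 0.108); with TMM it was called higher (adjusted p = 0.00309), as were Lgmn (0.0129) and Ctsc (0.0047). Without KO neonates 2 or WT neonates 1, Ctsl was called (limma adjusted p = 0.0161 and 0.0215). Ctsh and Tpp1, both exopeptidases, had log2 differences of -0.28 and -0.17 and were called lower with library sums but not with TMM (limma adjusted p = 0.0887 and 0.58). The call of Tpp1 also ended on leaving out KO neonates 2 (adjusted p = 0.097), KO neonates 3 (0.148), WT neonates 1 (0.091) or WT neonates 2 (0.168). Ctsd and Ctss were not called, with log2 differences of -0.07 and -0.06. The summed level of the 10 was 10830 to 12290 CPM in WT against 12647 to 14168 CPM in KO neonates, without overlap, and also without overlap with TMM.

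**Figure D5:**
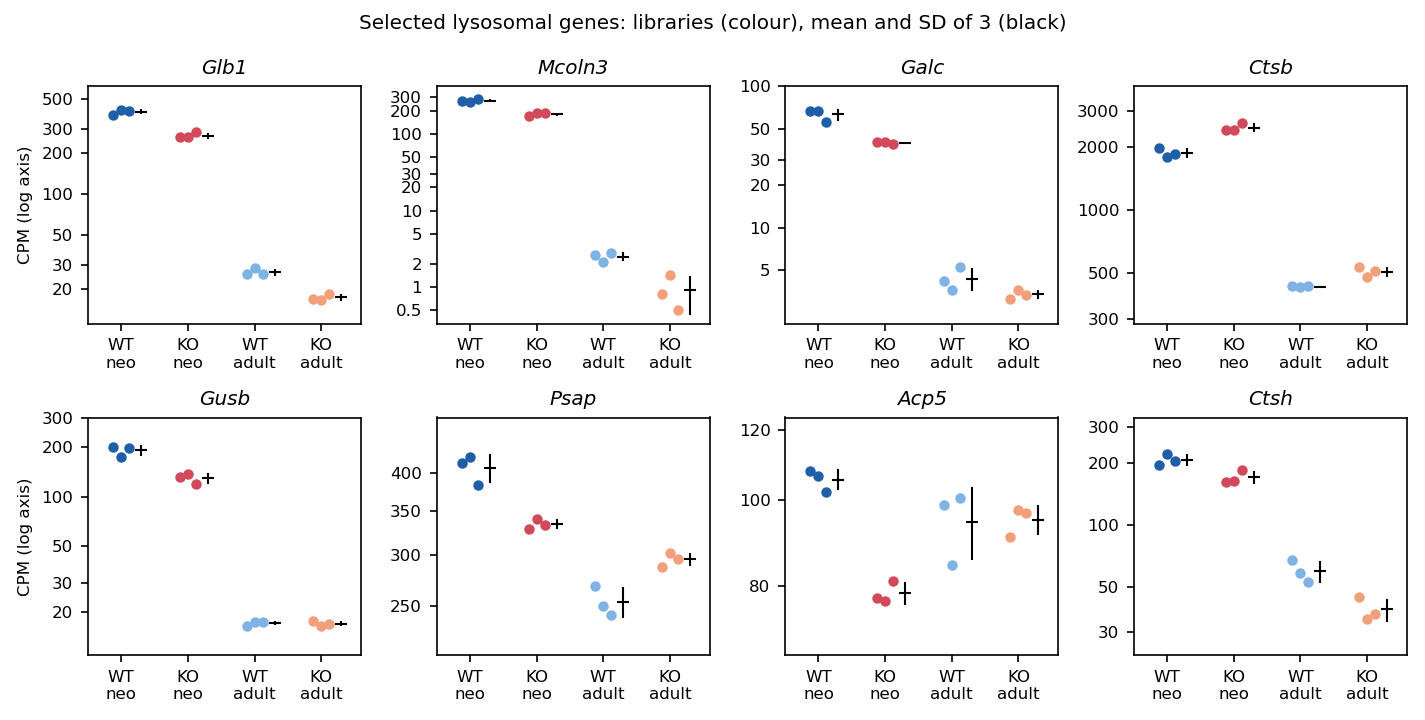
Level of 8 lysosomal genes in each library, in CPM on log axes that differ between panels, with the mean and SD of 3 libraries in black. In neonates the KO points of Glb1, Mcoln3, Galc, Gusb, Psap, Acp5 and Ctsh lie below WT and those of Ctsb above; in adults the KO points of Gusb and Acp5 lie within or beside the WT range. Glb1 and Psap have unequal exon lengths in the age tables and are read within an age.

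The 3 sulfatases, which remove sulfate groups, were low. Arsa, which desulfates sulfatide, stood at 38.0, 44.0 and 37.3 CPM in WT against 29.8, 30.1 and 34.6 CPM in KO neonates. The groups did not overlap (log2 -0.33, SE 0.0907, limma adjusted p = 0.0137), but the call was lost with TMM (adjusted p = 0.0976) and on leaving out KO neonates 1 (0.0514), KO neonates 2 (0.0527) or WT neonates 2 (0.0902). Sgsh was also called lower (log2 -0.39, SE 0.131, limma adjusted p = 0.041), which was lost with TMM (adjusted p = 0.167) and on leaving out KO neonates 1 (0.135), KO neonates 2 (0.101) or WT neonates 3 (0.199). Arsb, which acts on dermatan sulfate, varied more between libraries than any other of the 38 genes in neonates, with a coefficient of variation of 29.7% in WT and 39.0% in KO. It stood at 46.6, 54.3 and 29.1 CPM in WT against 25.5, 22.1 and 11.0 CPM in KO. No KO library reached a WT library, yet the difference did not pass the test (log2 -1.14, SE 0.431, limma adjusted p = 0.158).

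Of the 5 genes for lipid hydrolases and lipid-handling proteins, 3 fell and 0 rose in KO neonates (2 and 0 with TMM). Of all tested genes 16% fell and 5.21% rose (7.22% and 9.41% with TMM). Psap, the precursor of the saposins that present sphingolipids to their hydrolases, stood at 414, 423 and 384 CPM in WT against 328, 339.8 and 333 CPM in KO. The KO libraries lay below all WT libraries, with a log2 difference of -0.28 (SE 0.0527, limma adjusted p = 0.000605). Npc2, which carries cholesterol out of the lysosome, stood at 198, 225 and 202 CPM in WT against 172, 151 and 169 CPM in KO, without overlap (log2 -0.35, SE 0.0647, limma adjusted p = 0.000623). Asah1, the acid ceramidase, was called lower (log2 -0.28, SE 0.0668, limma adjusted p = 0.00478) but not with TMM (adjusted p = 0.0842). Lipa, the acid lipase for cholesteryl esters, and Ppt1, which removes palmitate from proteins, were not called, at log2 differences of 0.02 and -0.16.

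Both acid phosphatases were called lower in KO neonates, as were 16% of all tested genes. Acp5 stood at 108, 107 and 102 CPM in WT against 77.5, 76.9 and 81.1 CPM in KO, and every KO library lay below every WT library (log2 -0.42, SE 0.0623, limma adjusted p = 5.59e-05). Acp5 is also made by macrophages and related cells, whose markers are given above. Acp2 had a smaller difference (log2 -0.19, SE 0.0622, limma adjusted p = 0.0381), a call lost with TMM (adjusted p = 0.488) and without any single library, with adjusted p of 0.0611 to 0.115.

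Among the 5 membrane proteins and channels, Mcoln3 stood at 273, 263 and 281 CPM in WT against 172, 186 and 186 CPM in KO neonates. The KO libraries lay well below WT, with a log2 difference of -0.58 (SE 0.0559, limma adjusted p = 2.4e-07). Its relative Mcoln1, the main calcium channel of late endosomes and lysosomes, was not called at 137, 138 and 127 CPM in WT against 129, 133 and 134 CPM in KO (log2 -0.02, SE 0.0592, limma adjusted p = 0.808). Lamp1 stood at 1271, 1244 and 1194 CPM in WT against 1072, 1103 and 1155 CPM in KO, and Lamp2, its partner in the lysosomal membrane, at 561, 578 and 590.4 CPM in WT against 634, 635 and 643 CPM in KO. Neither pair of groups overlapped: Lamp1 was lower (log2 -0.16, SE 0.0486, limma adjusted p = 0.0272) and Lamp2 higher (log2 0.14, SE 0.0479, limma adjusted p = 0.0369). The Lamp1 call was lost with TMM (adjusted p = 0.683) and on leaving out KO neonates 1 (0.0892) or 2 (0.0642), or WT neonates 1 (0.117) or 2 (0.0817), and the Lamp2 call without any single library (0.0569 to 0.145). Scarb2, an integral protein of the lysosomal membrane, was not called (log2 0.03). Tfeb, the transcription factor gene, stood at 53.0, 52.0 and 53.3 CPM in WT against 53.2, 46.9 and 51.1 CPM in KO and was not called (log2 -0.07, SE 0.0738, limma adjusted p = 0.566).

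In adults, 2 of the 38 genes rose and 7 fell in KO, against 5.5% and 13.9% of the 13463 genes tested (19.4% in either direction). With TMM 4 were higher and 4 lower, against 9.28% and 6.77%. The members' median was -0.01 with library sums and 0.09 with TMM, while that of all genes was -0.11 and -0.01. Their summed level was 3685 to 3855 CPM in WT against 3741 to 3842 CPM in KO adults, which overlapped. With TMM the sums were 3456 to 3743 CPM in WT against 3869 to 4067 CPM in KO adults, and the groups did not overlap. Myeloid markers were at a summed 191 to 264 CPM in WT against 180.2 to 203 CPM in KO adults, with 0 of 14 called in either direction by limma, with library sums or TMM, and 4 at an unadjusted p under 0.05. Markers of some other cells were lower in KO adults. For fibroblasts 3 of 7 fell (456 to 609 CPM in WT against 364 to 378 CPM in KO). For Paneth cells 3 of 6 fell (11226 to 14032 against 7336 to 9654 CPM). For goblet cells 3 of 7 fell (10128 to 11145 against 8511 to 9363 CPM). With TMM these counts were 3, 3 and 2. Of 10 enterocyte markers 2 were higher and 0 lower under either scaling. Their sums were 49757 to 56926 CPM in WT against 56820 to 61541 CPM in KO adults. Of 5 T cell and 4 endothelial markers 0 were called (1 of each higher with TMM). Adult-type enterocyte markers summed to 11970 to 13323 CPM in WT against 9804 to 10998 CPM in KO adults, with 2 of 4 lower and 0 higher (1 and 0 with TMM). Suckling-type markers summed to 1903 to 2282 against 1106 to 1171 CPM, with 1 of 3 tested higher and 1 lower under either scaling. The higher one was Fcgrt, at 55.6 ± 1.97 CPM in WT and 102 ± 10.1 CPM in KO adults. The median log2 difference of the 3 tested was 0.17 (0.28 with TMM), so the sum and the median went opposite ways. The part of all these cells in the adult results was not tested.

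Glb1 fell in KO adults as well, from 25.8, 28.4 and 25.7 CPM in WT to 17.0, 16.8 and 18.6 CPM in KO. The groups did not overlap and the log2 difference was -0.58 (SE 0.0972, limma adjusted p = 0.00138). Mcoln3 was near the floor of detection, at 2.63, 2.13 and 2.76 CPM in WT against 0.805, 1.46 and 0.503 CPM in KO adults, or 6 to 19 reads per KO library. It fell by 0.89 on the log2(CPM + 1) scale (SE 0.201, limma adjusted p = 0.00822), a scale that understates the change of so low a gene. Mcoln3 met the filter of 1 CPM in 3 libraries through its WT adult libraries, since of the KO adult libraries only replicate 2 reached 1 CPM. With no filter it was called as well. Acp2 stood at 76.6, 80.4 and 72.6 CPM in WT against 57.0, 58.5 and 53.3 CPM in KO adults, without overlap (log2 -0.44, SE 0.0804, limma adjusted p = 0.00267). Ctsh, an aminopeptidase cathepsin, stood at 67.2, 58.5 and 52.5 CPM in WT against 44.4, 34.8 and 36.9 CPM in KO. All its KO libraries lay below WT, with a log2 difference of -0.60 (SE 0.111, limma adjusted p = 0.0029). These 4 falls held with TMM, with both count tests and in every leave-one-out run.

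Ctsc rose in KO adults, from 86.6, 94.6 and 90.7 CPM in WT to 117, 116 and 109.8 CPM in KO, without overlap (log2 0.33, SE 0.0762, limma adjusted p = 0.0099), and held in the same settings. Ctsb stood at 429.8, 428 and 429 CPM in WT against 529.7, 478 and 507 CPM in KO. Its KO libraries lay above WT, with a log2 difference of 0.23 (SE 0.0774, limma adjusted p = 0.0494). The call was lost without any single library (adjusted p = 0.068 to 0.14). It was also lost with no filter (0.0692), a pseudocount of 5 (0.0517) and the replicate block (0.0836). With TMM Ctsb was called (0.0118). Tpp1 went from 49.4, 53.5 and 55.2 CPM in WT to 40.9, 39.6 and 43.7 CPM in KO adults, a call lost with TMM (limma adjusted p = 0.014 and 0.0827) and without KO adults 2 (0.0588).

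Asah1 stood at 80.5, 90.1 and 84.4 CPM in WT against 70.8, 70.1 and 68.1 CPM in KO adults, without overlap (log2 -0.28, SE 0.0779, limma adjusted p = 0.0231). The call was lost with TMM (adjusted p = 0.132) and without WT adults 2 (0.0941), KO adults 2 (0.0648) or KO adults 3 (0.0916). Ctss stood at 219, 207 and 198 CPM in WT against 177, 173 and 149 CPM in KO adults. It fell by 0.32 on the log2 scale (SE 0.0858, limma adjusted p = 0.0193), which was lost with TMM (0.105) and without WT adults 1 (0.0647), WT adults 2 (0.0579) or KO adults 3 (0.105). Myeloid cells also express Ctss. Naglu and Psap were not called with library sums (limma adjusted p = 0.0621 and 0.0642) but were called higher with TMM (0.0266 and 0.0156). Neu1, Ctsl, Lamp1 and Tfeb were not called in adults, with log2 differences of 0.03, -0.01, -0.05 and 0.10 (limma adjusted p = 0.868, 0.927, 0.684 and 0.531). The remaining 23 genes were not called in adults either, and their log2 differences ranged from -0.28 for Galc to 0.17 for Arsa.

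Whether the effect of the knockout differed between the ages was tested directly, subtracting the neonatal from the adult effect in 1 limma fit over all 12 libraries. Of the 38 genes 3 differed, all with the higher effect in adults, against 5.46% of 14588 genes in either direction, 3.02% in that one and 2.44% in the opposite one. Gusb, lower in KO neonates, stood at 16.6, 17.6 and 17.5 CPM in WT against 17.6, 16.5 and 17.0 CPM in KO adults, where the groups overlapped. The effects differed by 0.55 (SE 0.111, limma adjusted p = 0.00466). Acp5 stood at 98.8, 84.4 and 101 CPM in WT against 90.8, 97.4 and 96.9 CPM in KO adults, again overlapping, and its effects differed by 0.43 (SE 0.103, limma adjusted p = 0.0155). Psap, lower in KO neonates, stood at 269, 250.4 and 242 CPM in WT against 288, 301 and 296 CPM in KO adults. All its KO adult libraries lay above WT, and its effects differed by 0.50 (SE 0.0886, limma adjusted p = 0.00149). The 3 differences were called in all 19 alternative settings run for them. For Glb1 the effects differed by less than 0.01 (SE 0.101, limma adjusted p = 0.998), and for Mcoln3 by -0.31 (SE 0.186, limma adjusted p = 0.397). Ctsb was called higher in KO at both ages, though its adult call held in no leave-one-out fit. Its effects differed by -0.17 (SE 0.089, limma adjusted p = 0.318).

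Other genes of the pathway were taken from lists by function, also drawn up with earlier results of these data known. Their counts stand beside those of all genes tested, of which 5.21% rose and 16% fell in KO neonates and 5.5% and 13.9% in KO adults. With TMM those shares were 9.41% and 7.22% in neonates and 9.28% and 6.77% in adults, and no list was tested against them. Of 33 other lysosomal hydrolases, 3 rose and 8 fell in KO neonates, and 6 rose and 5 fell with TMM. Smpd1, the acid sphingomyelinase, fell from 22.5 ± 2.03 to 12.0 ± 0.132 CPM, and Ids, the iduronate sulfatase, from 38.7 ± 4.34 to 25.0 ± 2.55 CPM (limma adjusted p = 9.62e-06 and 0.000156). Man2b2, a mannosidase, fell from 398 ± 23.6 to 324 ± 8.04 CPM (limma adjusted p = 0.000548). In adults 3 rose and 10 fell, 6 and 6 with TMM. The aspartic protease gene Ctse fell from 20.1 ± 4.29 to 7.42 ± 1.24 CPM and the carboxypeptidase gene Prcp from 19.4 ± 1.22 to 12.4 ± 0.777 CPM, while Scpep1, another carboxypeptidase gene, rose from 83.5 ± 5.35 to 132 ± 12.1 CPM and the hyaluronidase gene Hyal1 from 3.10 ± 0.845 to 7.21 ± 1.52 CPM (limma adjusted p = 0.000269, 0.0019, 0.000298 and 0.00246).

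Membrane transporters and channels carry small molecules and ions across the lysosomal membrane. In KO neonates 10 of 23 fell and 1 rose (6 and 1 with TMM), and in KO adults 9 fell and 0 rose (6 and 0 with TMM). Their summed level was 2702 to 2726 CPM in WT against 2186 to 2276 CPM in KO neonates. Slc17a5, which exports sialic acid and so handles the product of Neu1, fell from 814 ± 24.9 to 533 ± 8.29 CPM in neonates and from 39.8 ± 4.88 to 26.3 ± 1.06 CPM in adults (limma adjusted p = 1.94e-08 and 0.00189). Ostm1, Abca2 and Mfsd1 fell in neonates, with log2 differences of -0.52, -0.67 and -0.34. In adults Slc38a9, which senses arginine for mTORC1, fell from 19.7 ± 1.53 to 10.9 ± 1.56 CPM (limma adjusted p = 0.000689), Mcoln2, a relative of Mcoln3, from 24.7 ± 2.45 to 15.7 ± 0.578 CPM (0.00153), and Cd63 by 0.50 on the log2 scale (0.000955).

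Of 16 genes for the vacuolar proton pump, which acidifies the lysosome, 6 fell and 1 rose in KO neonates (3 and 1 with TMM), and 6 fell and 0 rose in adults (2 and 0 with TMM). Atp6v1h fell at both ages, from 117 ± 4.17 to 90.5 ± 5.37 CPM in neonates and from 67.5 ± 2.99 to 43.1 ± 2.69 CPM in adults (limma adjusted p = 0.000363 and 0.00027). Atp6v0a1 and Atp6ap2 fell in neonates by 0.36 and 0.38 on the log2 scale, and Atp6v0a2 rose by 0.30. Among 21 genes that sort enzymes to the lysosome, 5 fell and 0 rose in neonates (3 and 2 with TMM), and 4 fell and 1 rose in adults (2 and 3 with TMM). Igf2r, the large mannose 6-phosphate receptor, fell from 483 ± 14.6 to 381 ± 8.52 CPM in neonates and from 144 ± 12.7 to 106 ± 1.53 CPM in adults (limma adjusted p = 5.47e-05 and 0.00277). Gnptab, which codes for the enzyme that begins the mannose 6-phosphate tag, fell from 71.1 ± 4.97 to 46.8 ± 4.69 CPM in neonates, and the sorting adaptor gene Gga2 from 87.8 ± 3.17 to 52.5 ± 3.41 CPM (limma adjusted p = 2.3e-05 and 2.59e-07). In adults Vps18 rose from 22.4 ± 1.22 to 35.2 ± 3.31 CPM (limma adjusted p = 0.000939), and M6pr, the small mannose 6-phosphate receptor, fell by 0.31 on the log2 scale, a call lost with TMM (adjusted p = 0.0103 and 0.0732).

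Among 15 genes for TFEB relatives and for mTORC1 on lysosomes, 4 fell and 1 rose in KO neonates (1 and 1 with TMM). Tfec, a relative of Tfeb, rose from 130.3 ± 3.10 to 172 ± 11.1 CPM, and Fnip1, a partner of folliculin, fell from 75.0 ± 4.46 to 51.8 ± 1.65 CPM (limma adjusted p = 9.12e-05 and 2.06e-05). In adults 1 of the 14 tested fell, Fnip1, from 99.3 ± 10.6 to 74.0 ± 8.84 CPM (limma adjusted p = 0.0141). Of 14 tested autophagy genes, 4 fell in KO neonates and 0 rose, with the same counts with TMM: Map1lc3a fell from 35.1 ± 0.606 to 21.6 ± 1.25 CPM (limma adjusted p = 1.34e-05), and Gabarapl1, Wipi1 and Ulk1 by 0.53, 0.50 and 0.33 on the log2 scale. In adults 2 fell and 1 rose (0 and 1 with TMM), and the riser was Sqstm1, the autophagy receptor p62, from 151 ± 8.36 to 209 ± 14.8 CPM (limma adjusted p = 0.0019). Of 5 genes for milk protein uptake, which bring cargo to these lysosomes, Cubn rose from 892 ± 33.4 to 1179 ± 72.7 CPM and Dab2 from 689.6 ± 40.0 to 796 ± 67.8 CPM in KO neonates (limma adjusted p = 1.49e-05 and 0.023). Dab2 was called in 2 of 6 fits that left out 1 library. Lrp2, the receptor megalin, fell from 28.8 ± 1.63 to 2.69 ± 0.388 CPM in KO neonates (log2 -3.02, limma adjusted p = 2.78e-12). In KO adults, where 4 of the 5 were tested, Fcgrt, the neonatal Fc receptor, rose from 55.6 ± 1.97 to 102 ± 10.1 CPM (limma adjusted p = 4.52e-05). Amn, the partner of cubilin, fell from 132 ± 21.4 to 63.5 ± 5.99 CPM (limma adjusted p = 0.000207).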

How the data were processed

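Stranded mRNA libraries of whole small intestine were run for 36 cycles, per the labels' protocols. Reads were aligned to mm9, and Bowtie 0.12.2 is named, per the submitters' processing notes. HOMER's analyzeRepeats counted exon reads per gene, per the file headers. How reads with several matches were handled is not stated there. The columns the authors deposited as reads hold a signal: counts divided by 1 factor per library. Whole reads were recovered, 100% of values in each library being whole multiples of 1 step within 0.01 deposited units. The 12 deposited RPKM columns were not used. Exon lengths and coordinates are as deposited. Values were divided by the library sum to CPM. Genes that reached 1 CPM in 3 or more libraries were tested as log2(CPM + 1) with limma 3.58.1 (trend, robust) in R 4.3.3, KO against WT within each age, with Benjamini-Hochberg adjustment over all tested genes. The effects of both ages were compared in 1 fit of all genes in both tables.

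Alternatives were TMM factors, pseudocounts of 0.1 and 5, no filter, a replicate block, leaving out each library, and, on recovered reads, edgeR 4.0.16 (quasi-likelihood) and DESeq2 1.42.0, which called 2394 and 1575 genes in neonates and 2160 and 1824 in adults, against 3009 and 2611 with limma. Scripts were tested on simulated data. Library values are given for members called in a comparison (beyond 12, the 12 lowest adjusted p and 1 per role) and for Glb1, Neu1, Ctsl, Mcoln3, Lamp1 and Tfeb; up to 4 called genes with the lowest adjusted p are named per pathway list, except for an item that is not reported here. A few others, such as Arsb, were named after their values were seen. The members and lists were chosen with earlier results of these data known. Of the listed marker genes, Adgre1 and Jchain were not found under those symbols.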

Additional observations from a re-analysis of the deposited data

Results flagged for a closer look

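The effect of the knockout differed between the ages for 3 of the 38 lysosomal genes, by the test of the difference itself (effect in adults minus effect in neonates, log2). Of all 14588 genes tested, 5.46% differed in either direction and 3.02% with the higher effect in adults. The difference was 0.50 for Psap, 0.55 for Gusb and 0.43 for Acp5 (limma adjusted p = 0.00149, 0.00466 and 0.0155). In each case the KO neonates were lower than WT; in adults Psap was at 254 ± 13.7 CPM in WT against 295 ± 6.99 CPM in KO (not called with library sums), and Gusb and Acp5 overlapped between the groups. Summed myeloid markers were 469 to 505 CPM in WT against 335 to 408 CPM in KO neonates. In adults they were 191 to 264 CPM in WT against 180.2 to 203 CPM in KO. Of the 14 markers, 6 were lower in KO neonates (2 with TMM) and 0 in KO adults. Yet the direct test of the difference between ages called 0 of the 14 in either direction. Their median log2 difference between KO and WT was -0.28 in neonates and -0.23 in adults. Csf1r, with values given above, was the highest of the 14 in neonates. It made up most of the difference between the mean sums of WT and KO neonates. The part of these markers in the 3 differences was not tested.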

How the results depend on the processing

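In neonates the counts of members were 7 higher and 9 lower with TMM, edgeR or DESeq2, against 4 and 17; 13 of the 21 calls were shared, 8 were lost and 3 gained. In adults those settings each gave 4 higher and 4 lower, against 2 and 7. The adult count of higher genes was 1 with no filter, with a pseudocount of 5 and with the replicate block. Leaving out 1 library gave 2 to 5 higher and 12 to 15 lower in neonates (16 to 19 in all), 1 to 2 higher and 5 to 9 lower in adults (6 to 10 in all), and 3 to 5 differences between ages, of which 3 to 5 were higher and 0 to 1 lower. A pseudocount of 5 gave 5 differences between ages, all higher. The median age ratio of the 34 genes was 3.55 with CPM scaled to the sum over all genes of equal length and 2.80 with TMM, against 3.35 with CPM scaled to all genes. No direction of a called value was reversed in any setting run. The cause of these changes was not tested.

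The deviations of same-numbered WT and KO libraries did not all correlate above 0.1 (r = 0.16, 0.139 and 0.029 in neonates, 0.062, -0.212 and -0.121 in adults), so they are taken to share only a number. As a hint from the data, 5 of 6 neonatal libraries correlated best with their own number, against 1 of 6 in adults. With the replicate block 24 members were called in neonates (6 higher, 18 lower), 8 in adults and 4 in the difference between ages; Arsb then had an adjusted p of 2.09e-07 in neonates against 0.158.

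With 3 pools per group, counts of 6 to 19 reads, as for Mcoln3 in KO adults, limit the precision of low genes. Library sums and TMM differ by about 0.1 on the log2 scale in the median of all genes.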
